A study of Mus musculus with 3 samples.

Results

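The endothelin and apelin signalling genes of the mouse heart tube are described here in Sox7-null embryos and a wild type. The set was chosen by gene symbol and held Edn1, Ednra, Ednrb, Ece1, Ece2, Apln and Aplnr, which were 7 of the 23337 genes counted in each library. Bulk RNA-seq of total RNA was made from heart tubes at embryonic day 9.5, with 2 Sox7-null libraries, labelled Sox7 -/-, and 1 wild-type library. Sox7 encodes a SoxF transcription factor of endothelium and endocardium. The labels do not state how the null allele was made, the strain, or whether a tube was from 1 embryo or a pool, so p-values measure the spread between the null libraries only, which may be technical. The series asks which transcripts of the tube differ without Sox7.

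Endothelin-1 is made as a precursor that furin-type convertases trim and endothelin-converting enzymes then cut to the active peptide. The peptide acts through the G-protein-coupled receptors EDNRA and EDNRB, and in the embryo the pairing of Edn1 with Ednra on neural crest cells patterns the pharyngeal arches and the great arteries. Apelin is a secreted peptide that acts through APLNR, a receptor coupled to inhibitory G proteins on endothelial cells and early cardiac progenitors. The same receptor also binds a second peptide of the early embryo, encoded by Apela.

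Of these 7 genes, the ligand genes Apln and Edn1 and the converting enzyme gene Ece1 rose in the Sox7-null tubes and Ece2 fell. The receptor genes Ednra, Ednrb and Aplnr did not pass the test. The test was edgeR's quasi-likelihood test with Benjamini-Hochberg adjustment over all 13334 genes tested, at an adjusted p under 0.05. All 7 members passed the filter on low counts. Among all genes tested, 21.6% passed in either direction, 11.3% as higher and 10.2% as lower, against 3 of the 7 members higher and 1 lower. The members' median log2 fold change was 0.21, and that of all tested genes was 0.014.

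The sequences before the annotated starts of the 4 genes that passed the test are shown first, since 2 of them encode the peptides and the other 2 the enzymes. They were taken from RefSeq on build GRCm38.p6, where 6 of the 7 members matched a promoter window and Aplnr did not. Each line gives the 250 bases before the start, 5′ to 3′ on the strand of the gene. Capitals mark ACGTG, the core of hypoxia response elements, and ACAAT, the core bound by SOX proteins, each on either strand.
Edn1, chr13:42301226-42301475, plus strand: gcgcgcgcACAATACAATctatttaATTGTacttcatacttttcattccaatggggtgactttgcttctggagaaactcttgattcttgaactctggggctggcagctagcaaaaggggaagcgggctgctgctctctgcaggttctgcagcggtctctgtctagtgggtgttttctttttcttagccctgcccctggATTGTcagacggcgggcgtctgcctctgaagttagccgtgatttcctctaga
Apln, chrX:48034854-48035103, minus strand: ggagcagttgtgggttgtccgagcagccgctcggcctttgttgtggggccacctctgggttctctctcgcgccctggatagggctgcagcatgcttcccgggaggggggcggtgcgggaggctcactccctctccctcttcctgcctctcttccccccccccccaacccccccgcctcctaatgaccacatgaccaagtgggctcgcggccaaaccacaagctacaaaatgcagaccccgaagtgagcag
Ece1, start 3 of 4 annotated, chr4:137913308-137913557, plus strand: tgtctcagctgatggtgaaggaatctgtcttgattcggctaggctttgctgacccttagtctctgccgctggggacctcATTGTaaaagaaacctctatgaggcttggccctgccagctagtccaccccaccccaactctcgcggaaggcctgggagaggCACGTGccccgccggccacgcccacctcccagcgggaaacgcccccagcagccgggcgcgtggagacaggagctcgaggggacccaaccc
Ece2, chr16:20629601-20629850, plus strand: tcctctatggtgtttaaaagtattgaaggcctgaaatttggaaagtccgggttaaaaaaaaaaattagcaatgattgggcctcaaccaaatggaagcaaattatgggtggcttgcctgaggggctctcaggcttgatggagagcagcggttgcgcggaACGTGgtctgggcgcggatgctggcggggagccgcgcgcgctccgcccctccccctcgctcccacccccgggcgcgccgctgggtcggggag

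The Edn1 stretch held 4 copies of ACAAT or its reverse complement ATTGT, at -242, -237, -225 and -52 from the start. The whole window runs from 250 bases before the start to 50 after it. Of the 32851 annotated windows, 31.0% held at least 1 copy and 0.432% held at least 4. The cut-off of 4 is the count of Edn1 itself, so the 0.432% is a description and no test of rarity. Just after its start Edn1 held CACGT, the reverse complement of ACGTG, from position 22 to 26. This was followed by TGACTAA, which resembles the binding sequence of AP-1, from position 37 to 43.
Edn1, positions 22 to 43, chr13:42301497-42301518, plus strand: CACGTtgcctgtgggTGACTAA
A copy of TTATCT, which is the GATA sequence AGATAA on the opposite strand, lay at positions 9 to 14. The AP-1 and GATA letters were searched for after the sequence was seen, and 2.35% and 11.2% of all windows held them on either strand. The human EDN1 promoter is known to bind GATA2, AP-1 and the hypoxia-inducible factor HIF-1. Whether the letters described here correspond to those human sites was not examined.

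ACGTG was in 19.6% of all windows. The Ece1 window of start 3 held the palindrome CACGTG from -90 to -85, which counts on both strands, and 1 copy of ATTGT. It is shown because it is the Ece1 window with these letters: the windows of the other 3 Ece1 starts held neither ACGTG nor ACAAT on either strand. The Ece2 window held ACGTG from -92 to -88. The Apln window held neither ACGTG nor ACAAT on either strand, and the same was true of the windows of Ednra and Ednrb, which did not pass the test. The ETS core GGAA was present, on either strand, in each of the 4 windows shown and in 96.0% of all windows. Of the Ece1 windows not shown, that of start 4 held GGAA and those of starts 1 and 2 did not. These matches describe letters only, and no binding was measured.

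Reads assigned to genes numbered 13139823 and 13618338 in Sox7-null 1 and 2, against 13789388 in the wild type. Sox7 had 2 and 7 reads in Sox7-null 1 and 2, against 222 in the wild type, so the targeted gene went with the labels. Of the tissue named in the labels, 10 of 10 cardiomyocyte markers were tested, with summed levels of 30710 and 29300 CPM (TMM-scaled counts relative to library size) in Sox7-null 1 and 2, against 22800. The protocol text names retinal organoids, but the retinal genes Six6, Six3 and Crx had 0 reads in each library. Of the 8 retinal genes 2 were tested, 0 rose and 1 fell, namely Lhx2, which is not confined to retina, with 5 and 2 reads against 58. Lhx2 passed the filter on low counts only through the wild type, so the direction of its call was fixed by the filter. By these genes no library stood apart from its label. The only wild-type library did differ in alignment, with 22.3% of reads not uniquely aligned, against 10.4% and 11.6% in Sox7-null 1 and 2. That difference cannot be told apart from genotype.

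Edn1, the gene of the endothelin-1 precursor, rose. It had 397 and 323 reads in Sox7-null 1 and 2, against 109 in the wild type, or 29.4 and 23.4 CPM against 8.22 CPM. Both null libraries were well above the wild type and close to each other. The null mean was 26.4 ± 4.25 CPM (SD, n = 2), and the log2 fold change was 1.68 ± 0.27 (SE; edgeR adjusted p = 0.00141), which is 3.21-fold. Of all tested genes, 3.61% had a higher fold change.

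Apln, the apelin gene, had the highest fold change of the members. It had 322 and 239 reads in Sox7-null 1 and 2, against 17 in the wild type, or 23.9 and 17.3 CPM against 1.28 CPM. Reads of apelin were thus few in the wild type and well counted in both null libraries. The summed counts gave a 16.1-fold higher level (95% exact interval 9.94 to 27.8, for counting error only). The log2 fold change was 4.0 ± 0.39 (edgeR adjusted p = 8.22e-05), and 54 of the 13334 genes tested had a higher one.

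**Figure D1:**
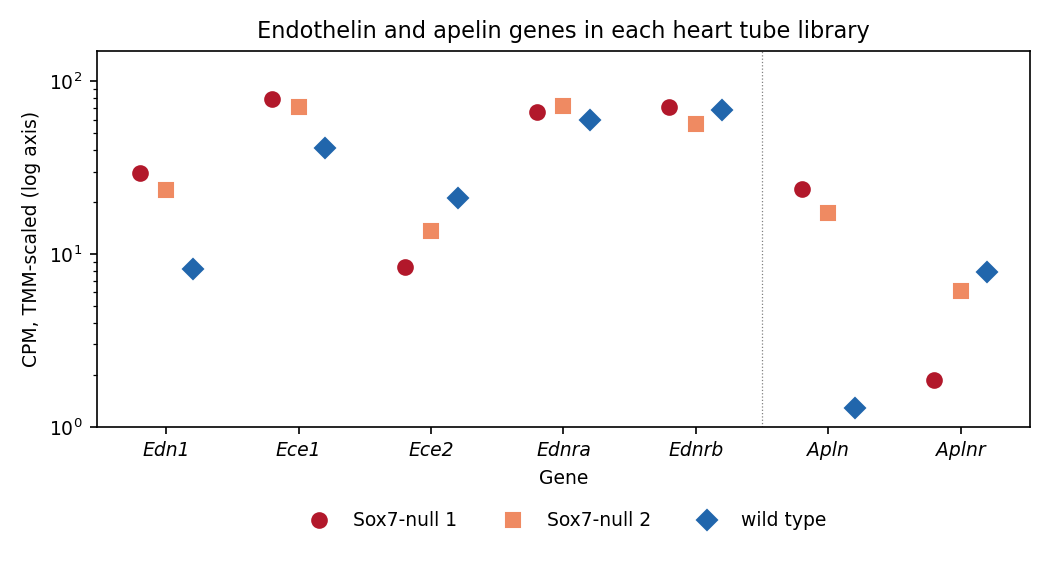
Normalised level of each member in each library, in CPM on a log axis, with endothelin genes left of the dotted line and apelin genes right of it; each point is 1 library. For Edn1, Ece1 and Apln both Sox7-null points lie above the wild-type point, for Ece2 and Aplnr below it, and for Ednra and Ednrb the 3 points lie close together.

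The 2 converting enzyme genes moved in opposite directions. Ece1, whose membrane-bound protease is the main endothelin-converting enzyme of the embryo, rose, with 1066 and 975 reads in Sox7-null 1 and 2, against 547 in the wild type. These were 79.1 and 70.8 CPM against 41.2 CPM, so the null libraries were close to each other and both above the wild type. The log2 fold change was 0.86 ± 0.21 (edgeR adjusted p = 0.0118), or 1.82-fold, and 13.0% of tested genes had a higher one.

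Ece2, a related protease known for its activity at acidic pH, fell. It had 114 and 188 reads in Sox7-null 1 and 2, against 278 in the wild type, or 8.46 and 13.6 CPM against 21.0 CPM. Both null libraries were lower, with Sox7-null 1 the lowest. The log2 fold change was -0.92 ± 0.29 (edgeR adjusted p = 0.0388), and it was -0.62 without Sox7-null 1 and -1.31 without Sox7-null 2. The call was lost with DESeq2 (adjusted p = 0.164) and in edgeR at a minimum mean of 5 CPM (adjusted p = 0.0642). Ece2 is uncertain in identity too, since 57.5% of its annotated exon bases in GENCODE M21 are shared with Gm49333. Gm49333 is a protein-coding readthrough gene on the same strand that takes in Ece2 exons, and no gene was counted under that symbol.

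The receptor genes of endothelin had levels near those of the wild type. Ednra, which mediates endothelin-1 signals in neural crest, myocardium and smooth muscle, had 66.1 and 71.6 CPM in Sox7-null 1 and 2, against 59.3 CPM in the wild type. Its log2 fold change was 0.21 ± 0.20 (edgeR adjusted p = 0.473). Ednrb, known for its part in melanocyte and enteric neural crest development and also made by endothelium, had 70.5 and 56.4 CPM in Sox7-null 1 and 2, against 68.2 CPM. The wild-type value lay between the null values, and the log2 fold change was -0.10 ± 0.21 (edgeR adjusted p = 0.762), with opposite signs without Sox7-null 1 (-0.27) and without Sox7-null 2 (0.048). A p that misses the threshold does not show that these levels were equal.

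Aplnr, the apelin receptor gene, was the member whose null libraries differed most. It had 25 reads in Sox7-null 1 and 84 in Sox7-null 2, against 105 in the wild type, or 1.86 and 6.10 CPM against 7.92 CPM. Both null values were lower, but Sox7-null 2 was nearer to the wild type than to Sox7-null 1. The log2 fold change of -0.99 ± 0.51 did not pass (edgeR adjusted p = 0.184), and it was -0.38 without Sox7-null 1 and -2.09 without Sox7-null 2. In a bulk sample fewer cells of a type and less RNA per cell cannot be told apart, for this gene and for the others.

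**Figure D2:**
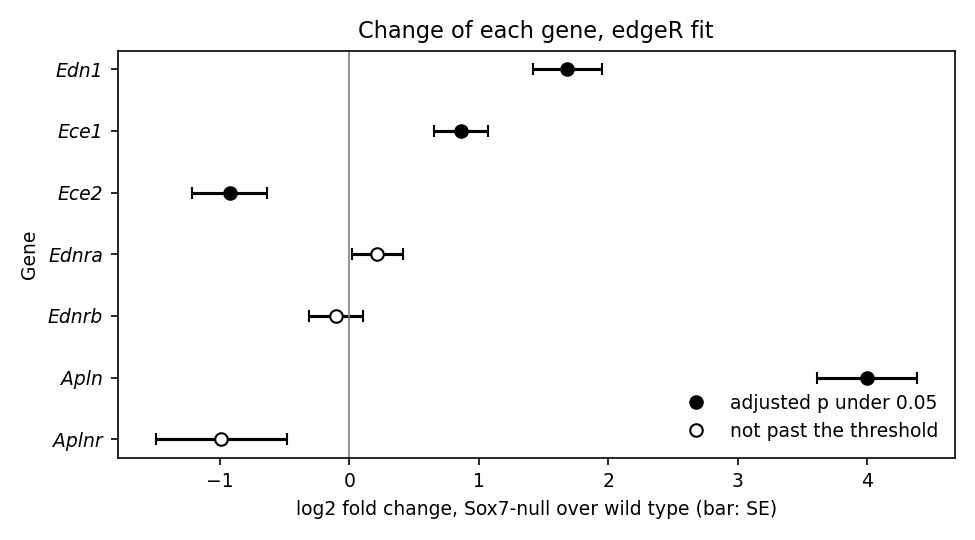
Log2 fold change of each member, Sox7-null over wild type, from the edgeR fit, with bars of 1 SE; filled points passed an adjusted p of 0.05 and open points did not. Apln stands at 4.0 and Edn1 at 1.68, Ece2 and Aplnr lie below 0, and both endothelin receptors lie near 0.

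Levels were compared between genes per length, as TPM, computed here from the counts with the merged exon lengths of GENCODE M21. In Sox7-null 1 the order of TPM was Ednrb 49.8, Ece1 45.0, Edn1 41.5, Ednra 36.4, Apln 22.9, Ece2 4.99 and Aplnr 1.51. In Sox7-null 2 it was Ece1 37.9, Ednrb 37.5, Ednra 37.0, Edn1 31.1, Apln 15.6, Ece2 7.57 and Aplnr 4.67. In the wild type it was Ednrb 40.7, Ednra 27.6, Ece1 19.8, Ece2 10.4, Edn1 9.79, Aplnr 5.45 and Apln 1.04. The 2 null libraries thus shared a group of 4 genes, Ednrb, Ece1, Ednra and Edn1, whose mean TPM of 43.6, 41.4, 36.7 and 36.3 lay closer together than the 2 null values of Ednrb or of Edn1. Apln was the lowest of the 7 in the wild type and the fifth in both null libraries.

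Ratios of TPM within each library show the same shifts in balance. The level of Apln was 15.1 and 3.34 times that of Aplnr in Sox7-null 1 and 2, against 0.19 times in the wild type. Ligand transcripts of apelin were thus more abundant than receptor transcripts in both null libraries and less abundant in the wild type. Ece1 stood at 9.02 and 5.0 times Ece2 in the null libraries, against 1.90 times in the wild type. Edn1 stood at 1.14 and 0.839 times Ednra, against 0.355 times, while Ednra stood at 0.731 and 0.989 times Ednrb, against 0.677 times. These ratios restate the levels above, were not tested, and differ between the null libraries most for Apln over Aplnr.

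**Figure D3:**
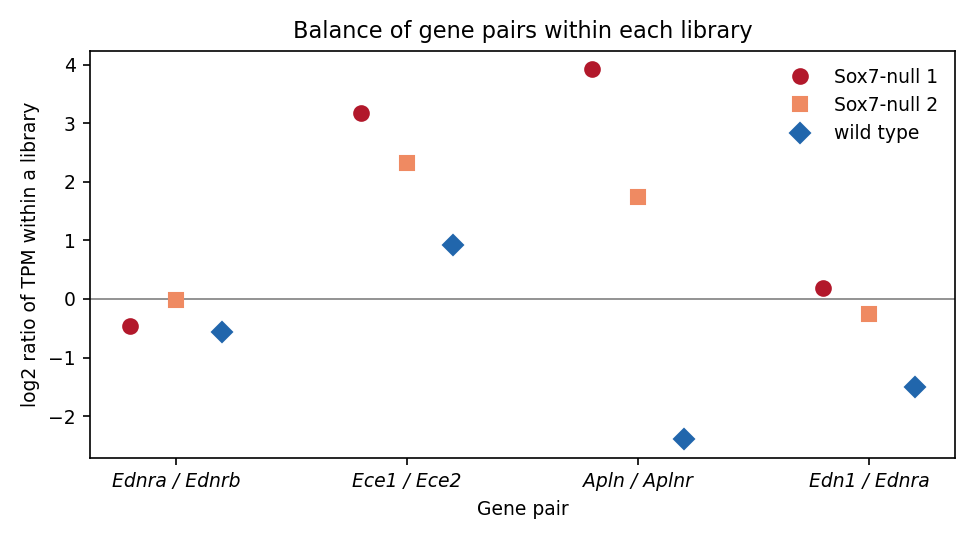
Log2 ratio of TPM for 4 gene pairs within each library, 1 point a library, where 0 means equal length-scaled levels. The wild-type point is the lowest of the 3 for each pair, and for Apln over Aplnr it lies below 0 at -2.40 while both Sox7-null points lie above 0 at 3.92 and 1.74.

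Among the other genes of endothelin processing and signal transduction, 4 of 17 tested rose and 0 fell. Of all tested genes 11.3% rose and 10.2% fell, 21.6% in either direction. The median log2 fold change of the list was 0.46. The precursor proteases Furin (1.01 ± 0.21, edgeR adjusted p = 0.00507) and Pcsk5 (1.29 ± 0.28, edgeR adjusted p = 0.00728) rose. So did Mme, which encodes neprilysin, a protease that degrades endothelin and apelin peptides (0.94 ± 0.27, edgeR adjusted p = 0.0259), and the G-protein subunit gene Gna13 (0.95 ± 0.21, edgeR adjusted p = 0.00837). The subunit genes through which endothelin receptors activate phospholipase C did not pass, with log2 fold changes of -0.24 for Gnaq and -0.55 for Gna11. The sister ligand Edn2 had 18 and 3 reads in Sox7-null 1 and 2, against 2 in the wild type, a ratio of 5.11 whose 95% exact interval ran from 1.25 to 44.9. It did not pass, and Edn3, with 1 and 2 reads against 9, was left out by the filter on low counts.

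Of 8 genes known to act with or downstream of Edn1 and Ednra in the pharyngeal arches, 5 were tested. Of these 1 rose and 2 fell, with a median of -0.02, against 11.3% and 10.2% of all tested genes. The transcription factor gene Hand2, which is also made in the heart itself, fell by 0.91 ± 0.20 on the log2 scale (edgeR adjusted p = 0.00779), with 777 and 1012 reads in Sox7-null 1 and 2, against 1631. Barx1, a homeobox gene of arch and stomach mesenchyme, had 4 and 14 reads against 50 and fell by 2.50 ± 0.65 (edgeR adjusted p = 0.0166). Dlx3, a homeobox gene of ectoderm and arch mesenchyme, had 45 and 15 reads against 0. It passed the filter on low counts only through the null libraries, so the direction of its call was fixed by the filter. With the wild-type group set at a floor of 3 counts the ratio was 9.73, which is not a lower bound. The 95% exact interval of the summed counts, which covers counting error only, begins at 7.67-fold. Hand1 (-0.02) and Mef2c (0.13) did not pass, and Dlx5, Dlx6 and Gsc had at most 4 reads in any library. Markers of neural crest, the cells in which this pathway acts, had few reads. Of 10 markers 5 were tested and 0 passed, at a median of -0.41. Their summed level was 8.68 and 10.4 CPM in Sox7-null 1 and 2, against 11.3 CPM. Foxd3 had 0 reads in each library and Sox10 had 0 and 1 reads against 11. Their part in the arch gene values was not tested.

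Among the other apelin genes 1 of 8 tested rose and 0 fell, against 11.3% and 10.2% of all tested genes. The list median was -0.28. Apela, counted under its older symbol Gm10664, had 229 and 91 reads in Sox7-null 1 and 2, against 228 in the wild type. The library lowest in Apela was therefore Sox7-null 2, whereas the lowest in Aplnr was Sox7-null 1, and the log2 fold change of -0.55 ± 0.40 did not pass (edgeR adjusted p = 0.359). Hdac5, a histone deacetylase that apelin signalling is known to phosphorylate in endothelial cells, rose by 0.79 ± 0.21 (edgeR adjusted p = 0.0183). The flow-responsive factor Klf2 (-0.60) and the endothelial nitric oxide synthase Nos3 (-0.64) did not pass, nor did Gnai3 (-0.47).

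Edn1, Apln and Aplnr are transcribed in endothelium, so endothelial markers are given beside them. Of 17 tested, 4 rose and 2 fell, against 11.3% and 10.2% of all tested genes. The median log2 fold change of the 17 was 0.15, and none was at 0 reads. Their summed level was 858 and 846 CPM in Sox7-null 1 and 2, against 810 CPM. Pecam1 had a log2 fold change of 1.07, Erg of 1.11, Flt1 of 0.88 and Tie1 of 0.83, whereas Tek stood at -0.91 and Npr3 at -0.62. The marker with the largest value of either sign was Cldn5, at -1.44 ± 0.49 on 17 and 23 reads against 53, which did not pass (edgeR adjusted p = 0.0531). The part of endothelial cell number in the values of Edn1, Apln and Aplnr was not tested. Cardiomyocyte markers had 6 of 10 higher and 0 lower, against 11.3% and 10.2% of all tested genes. Their median was 0.56, led by Myh7 at 2.20.

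Apln and Edn1 are also known to be transcribed more under low oxygen. Of 12 genes of that response 12 rose, with a median of 1.57, against 11.3% of all tested genes. The list was chosen with earlier results of these data known, so this count is a description and no independent support. The summed level of the 12 genes was 15380 and 14450 CPM in Sox7-null 1 and 2, against 8487 CPM, and 0 of them were at 0 reads. The mitophagy gene Bnip3 had a log2 fold change of 1.5, the prolyl hydroxylase gene Egln3 of 3.52, Ndrg1 of 3.41 and the carbonic anhydrase gene Car9 of 4.43. Relative to the wild type the list median stood at 1.72 (Sox7-null 1) and 1.39 (Sox7-null 2) on the log2(CPM + 0.5) scale. Differences in Sox7-null 1 and 2 were 3.77 and 3.32 for Apln, 1.78 and 1.46 for Edn1, and 0.93 and 0.77 for Ece1. Each was thus higher in Sox7-null 1. Every gene of the list except Ldha (0.32 and 0.44) had this order too. Outside the list Pecam1 (1.27 and 0.82) and Ryr2 (1.23 and 0.79) had it, and Nkx2-5 (0.39 and 0.55) had the opposite order. These outside genes are examples, and the share of all genes with either order was not counted. The part of the low-oxygen response in the members' values was not tested.

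**Figure D4:**
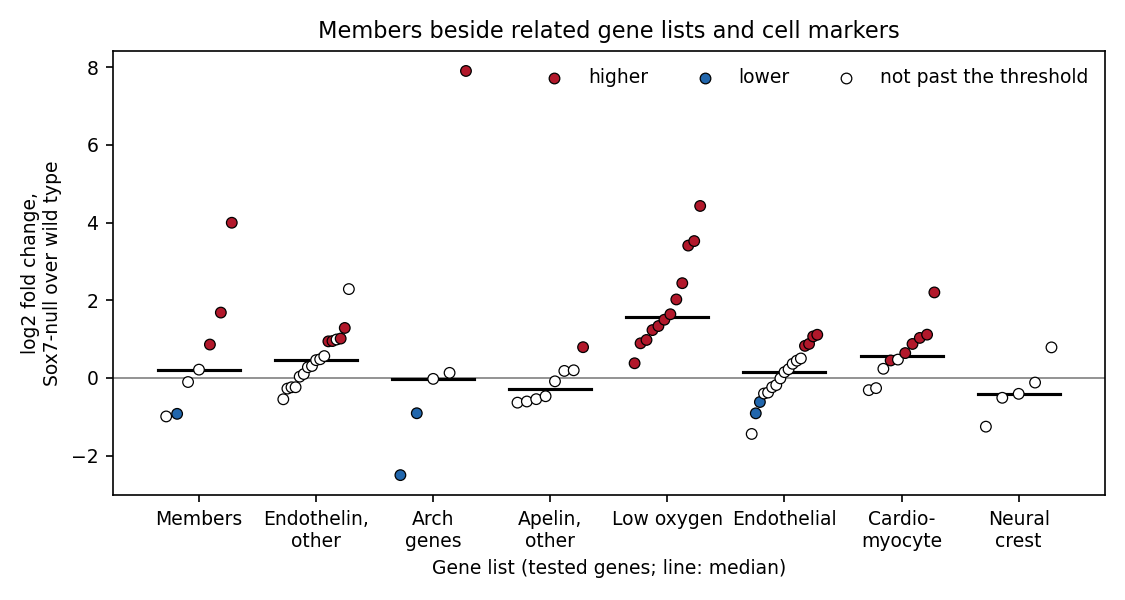
Log2 fold change, Sox7-null over wild type, of each tested gene in the 7 members and in the lists described here; each point is 1 gene, red and blue points passed an adjusted p of 0.05 as higher and lower, and lines are medians. The 12 low-oxygen genes all lie above 0, the other lists lie on both sides of it, and the topmost arch gene is Dlx3, whose fitted value depends on a wild type at 0 reads.

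Genes with profiles most like those of the 4 members past the threshold were sought over the 3 libraries, as the smallest Euclidean distance of centred log2(CPM + 0.5) values among 9485 genes with a mean of at least 5 CPM. Nearest to Edn1 were Bend5 (distance 0.011) and Usp11 (0.017), and nearest to Ece1 were Neurl1a (0.007) and Igf2 (0.008). Nearest to Ece2 were Skp2 (0.041) and Kbtbd8 (0.046). Within a distance of 0.2 lay 111 genes for Edn1, 651 for Ece1 and 147 for Ece2, so many genes had such a profile over 3 libraries. Apln had 0 genes that near, and its nearest were Bhlhe40 (0.257), with 1724 and 1000 reads in the null libraries against 102 in the wild type, and Sprr1a (0.291). The distance was not scaled to the size of a change, and only 54 of 13334 tested genes had a higher fold change than Apln. The 0 thus does not show a profile of its own kind.

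With 2 libraries against 1 the fit had 1 residual degree of freedom, so the wild type was given the spread seen between the null ones. Without a filter on low counts edgeR called 0 members and 0 genes, against 3 members and 4113 genes at an unadjusted p under 0.05, and the smallest adjusted p was 0.122.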

How the data were processed

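The 7 members and all lists were chosen with earlier results of these data known. The deposited values were raw counts of reads for each gene symbol, and every library had a file of its own. The submitters' processing notes list HTSeq, TopHat2, CASAVA and DESeq2 1.10.1. They give hg19 and GRCh37, builds of the human genome, although the symbols are those of mouse. No source used here gives the annotation or strand setting of the counting, so antisense and overlapping genes cannot be separated: exons of Edn1 and Ednra share 35 and 91 bases with genes on the opposite strand. Per the labels' protocols the kit was a stranded total RNA kit.

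The 5 HTSeq summary lines entered neither library sizes nor tests; reads without a feature, ambiguous or not uniquely aligned made up 8.10%, 2.27% and 10.4% in null library 1, 8.52%, 2.29% and 11.6% in null library 2 and 11.7%, 1.97% and 22.3% in the wild type. The null libraries differed by more than counting noise, with a chi-square per degree of freedom of 20.7, so they were not copies of 1 library file; this does not show separate embryos. Counts were fitted with edgeR 4.0.16 in R 4.3.3 (glmQLFit, glmQLFTest) with TMM factors of 1.03, 1.01 and 0.962 and filterByExpr at a minimum count of 10, which left out 10003 genes. The prior degrees of freedom were 11.8 and the biological coefficient of variation 15.0%. The SE is the log2 fold change divided by the square root of F. The fit was tested on simulated counts. Of genes changed by 1 on the log2 scale, 52% of those lowered and 54% of those raised were called. Of genes changed by 2, 100% were called in each direction, and 9 unchanged genes were called. A change of about 1 could thus miss the threshold. DESeq2 1.42.0, limma 3.58.1 (voom), other scalings and filters, and removal of a trend on length and GC (mgcv) were the alternatives. CPM were TMM-scaled. Of 99 list entries all 99 matched, 2 through an older symbol. Named genes were the members, Sox7, up to 4 tested genes of each list by smallest p, others a list's description needed, and the nearest profiles. Intervals and floors cover counting error only: PCR copies were not separated by molecular identifiers, so reads are not independent molecules. Results of 2 genes that the description of their lists would have named are not reported here.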

Additional observations from a re-analysis of the deposited data

How the results depend on the processing

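Across RLE and upper-quartile factors, limma-voom and removal of the length and GC trend, 3 members stayed higher and 1 lower, and those scalings moved the median of all genes by under 0.1. With DESeq2 and at a minimum mean of 5 CPM, 3 were higher and 0 lower, since Ece2 (log2 fold change -0.93 and -0.92) was no longer called; the cause was not tested. DESeq2 called 1662 genes in all, against 2874 in edgeR. Without a filter on low counts 0 members and 0 of all genes passed, while the log2 fold changes were 1.70 for Edn1, 0.88 for Ece1, -0.91 for Ece2, 4.01 for Apln and -5.61 for Sox7. The prior degrees of freedom were then 3.23, against 11.8. With the length and GC trend removed Ednrb, which is not called, stood at 0.071, Edn1 at 2.08 and Ece1 at 0.59. Leaving out 1 null library gave a value with no test, from 3.75 to 4.21 for Apln, 1.51 to 1.84 for Edn1, 0.78 to 0.94 for Ece1, -1.31 to -0.62 for Ece2, 0.16 to 0.27 for Ednra, -0.27 to 0.048 for Ednrb, -2.09 to -0.38 for Aplnr and -6.73 to -5.02 for Sox7. No paired analysis was possible because the wild-type group held 1 library and the labels give no number that links libraries. Few reads limit Apln in the wild type (17) and Aplnr in Sox7-null 1 (25).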
